A study of Xenopus laevis with 4 samples.

Results

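The genes described here are the pancreatic carboxypeptidases cpa1.L, cpa1.S and cpb1.S, together with pdia2.L, a protein disulfide isomerase of the pancreas. They were chosen by name, as all probe sets whose only gene symbol in the platform annotation is one of these 4. This gave 6 probe sets out of 15491 that are not controls: 1 each for cpa1.L, cpa1.S and pdia2.L, and 3 for cpb1.S. No probe set had cpb1.L or pdia2.S as its only symbol. The RefSeq genes used here include pdia2.S but none named cpb1.L. The suffixes .L and .S mark the copies of a gene on the long and short subgenomes of the allotetraploid frog *Xenopus laevis*, and whether a probe set of one copy also binds transcripts of the other was not tested.

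The study compared dorsal with ventral pancreatic buds cut from anaesthetised tadpoles before the buds fuse. Each of 4 samples was total RNA from a pool of 1000 to 3000 buds, 2 pools of dorsal and 2 of ventral buds, each read on its own Affymetrix array; a pool gave only 1 to 5 ng of RNA. The labels name no strain, stage, genotype or treatment beyond the anaesthetic, and do not say whether the 2 pools of a bud were gathered from different clutches or on different days. The p-values below therefore describe the spread of these 4 samples, part or all of which may be technical. In the text, dorsal 1, dorsal 2, ventral 1 and ventral 2 are the arrays with those replicate numbers.

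Acinar cells of the exocrine pancreas make digestive enzymes as inactive zymogens, fold them in the endoplasmic reticulum and store them in granules for release into the gut. Carboxypeptidases A and B are zinc enzymes that remove single residues from the carboxyl end of peptides: the A form takes aromatic and branched aliphatic residues, the B form lysine and arginine. In the gut they act after trypsin and chymotrypsin have cut the chain. The pdia2 protein (also called Pdip or XPDIp) is an endoplasmic reticulum isomerase that forms and rearranges disulfide bonds, and in *Xenopus* its transcript is used as an early marker of the pancreas.

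With controls left out, each array had a mean intensity of 100 and a median between 21.8 and 24.2, which shows a common scaling before deposit. Correlations across the 9294 tested probe sets ran from r = 0.938 (dorsal 2 with ventral 2) to r = 0.981 (the ventral pair), and the dorsal arrays stood at r = 0.949 with each other, below dorsal 1 with ventral 1 (r = 0.962). The dorsal arrays thus differed more from each other than the ventral arrays did. Of these probe sets, 24 passed an adjusted p of 0.05 in limma, 0.0753% in the dorsal and 0.183% in the ventral direction. Of the 5 tested member probe sets 0 passed, and 1, that of cpa1.L, had an unadjusted p under 0.05. As to the identity of the tissue, the insulin gene ins.L was at 1383 and 1235 in the dorsal arrays against 32.7 and 26.3 in the ventral arrays, and chymotrypsinogen ctrb1.L lay between 2825 and 5353 in all 4 arrays. The pancreas regulators pdx1 and ptf1a were looked for by symbol, and no probe set had either as its only symbol.

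The carboxypeptidase A gene cpa1.L was higher in both dorsal arrays than in both ventral arrays, by less than the test required. Its intensity was 666 in dorsal 1, 485 in dorsal 2, 439 in ventral 1 and 209.7 in ventral 2. The groups did not overlap, but dorsal 2 and ventral 1 were close. The means were 575 ± 128 in dorsal and 324 ± 162 in ventral buds (SD, n = 2 each). On the log2(intensity + 6) scale the difference, dorsal minus ventral, was 0.89 ± 0.34 (SE), a fold of 1.85, with a 95% interval from 0.10 to 1.69. The unadjusted p in limma was 0.0329 and the adjusted p over all tested probe sets was 0.52, so cpa1.L did not pass. An unadjusted p under 0.05 in the dorsal direction was reached by 3.41% of tested probe sets. In these pools of whole buds, fewer acinar cells and less RNA per cell cannot be told apart. Without dorsal 2 the difference was 1.12 and passed (adjusted p = 0.0358), in a fit where the spread rests on the ventral pair and 3.74% of probe sets passed. Without ventral 2 it was 0.37 and without ventral 1 it was 1.41.

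The homeologue cpa1.S was dim on all arrays. Its intensity was 7.21 in dorsal 1, 1.28 in dorsal 2, 7.15 in ventral 1 and 2.30 in ventral 2. The groups overlapped, and both replicate 1 arrays lay above both replicate 2 arrays. Its mean log2 was 3.34, below the minimum of 4.40 for testing, so it has no test. Detection calls are not used here, and whether cpa1.S was detected is unknown. The log2 difference was -0.09, a value that the pseudocount of 6 shrinks, since most of its intensities lie below it or near it.

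For cpb1.S, the brightest of its 3 probe sets had an intensity of 231 in dorsal 1, 27.3 in dorsal 2, 81.3 in ventral 1 and 21.2 in ventral 2. The order of arrays was dorsal 1, ventral 1, dorsal 2, ventral 2, so the groups overlapped. The dorsal pair was farther apart than the ventral pair. Means were 129 ± 144 in dorsal and 51.3 ± 42.5 in ventral buds (SD, n = 2 each). The log2 difference was 0.87 ± 0.90 (SE), with a 95% interval from -1.26 to 2.99 and an adjusted p of 0.829 in limma. The interval allows cpb1.S to be more than 2-fold higher in either bud. Without dorsal 1 the difference turned to -0.55, and without dorsal 2 it was 2.28. Without ventral 1 it was 1.71 and without ventral 2 it was 0.02. Dorsal 1 therefore decides the direction of this probe set. Without dorsal 1 the other cpb1.S probe sets stayed above 0, the middle one at 0.45 and the dimmest at 0.18.

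The other cpb1.S probe sets kept the same highest and lowest arrays, with other sizes. The middle one had 144 in dorsal 1, 38.3 in dorsal 2, 40.2 in ventral 1 and 16.8 in ventral 2, with dorsal 2 just under ventral 1. Its log2 difference was 1.33 ± 0.58 (SE), with a 95% interval from -0.03 to 2.69 and an adjusted p of 0.59 in limma. Without dorsal 2 this probe set was at 2.21, without dorsal 1 at 0.45, without ventral 1 at 1.84 and without ventral 2 at 0.82. The dimmest one had 39.3 in dorsal 1, 24.3 in dorsal 2, 21.9 in ventral 1 and 19.6 in ventral 2. Its groups did not overlap, and its log2 difference was 0.47 ± 0.26 (SE, adjusted p = 0.667 in limma). These intensities lie near the minimum for testing, equivalent to 15.1, where the pseudocount of 6 shrinks differences between buds and between replicates. The middle and the dimmest probe set are annotated with the same source transcript and the brightest with another. Between dorsal 1 and dorsal 2 the 3 probe sets differed by 8.45, 3.77 and 1.61 times in intensity, so the size of the spread depends on the probe set, while dorsal 1 was highest and ventral 2 lowest on each.

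The isomerase pdia2.L was at 2483 in dorsal 1, 977 in dorsal 2, 1930.0 in ventral 1 and 1038.5 in ventral 2. Each bud had one high and one low array, and the dorsal arrays enclosed the ventral ones. The means were 1729.7 ± 1065 in dorsal and 1484 ± 630.4 in ventral buds (SD, n = 2 each). The log2 difference was 0.14 ± 0.44 (SE), with a 95% interval from -0.91 to 1.19 and an adjusted p of 0.955 in limma. A change of 2-fold in the dorsal direction lies inside that interval, so the arrays do not show that pdia2.L is equal in the 2 buds. Its sign turned without dorsal 1 (-0.53) and without ventral 2 (-0.31), while it was 0.81 without dorsal 2 and 0.58 without ventral 1. In none of these fits did pdia2.L pass (lowest adjusted p 0.0687, without dorsal 2).

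**Figure D1:**
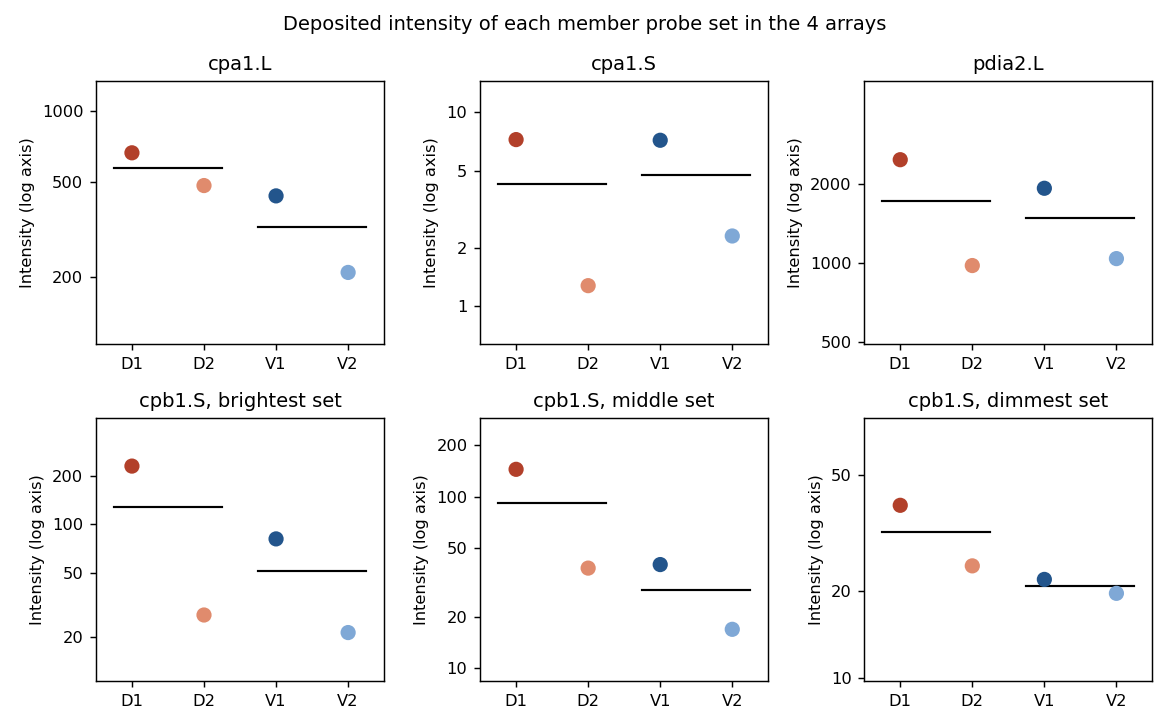
Deposited intensity (log axis, a separate range in each panel) of the 6 member probe sets in dorsal arrays 1 and 2 (D1, D2) and ventral arrays 1 and 2 (V1, V2). Points are single arrays and black lines are group means. In every panel D1 lies above D2 and V1 above V2, and for cpa1.L and the dimmest cpb1.S probe set both dorsal points lie above both ventral points.

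Among the 5 tested member probe sets, 2 had groups that did not overlap, both with dorsal higher (cpa1.L and the dimmest of cpb1.S), where 21.9% of all tested probe sets had that order. An exact permutation test of 2 arrays against 2 cannot give a two-sided p below 0.333, so no member can reach 0.05 by that test.

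The arrays of one bud also differed from each other in these genes. In the 5 tested member probe sets, and in the dim cpa1.S, replicate 1 was higher than replicate 2 in dorsal and again in ventral buds, an order seen in 24.9% of tested probe sets. For pdia2.L the replicate 1 intensity was 2.54 times that of replicate 2 in dorsal and 1.86 times in ventral buds. For cpa1.L these ratios were 1.37 and 2.09, so here the ventral pair was farther apart. For the brightest cpb1.S probe set they were 8.45 and 3.83. The labels do not say whether equal replicate numbers mark a shared collection. Over all tested probe sets, the dorsal and ventral replicate differences had a correlation of 0.05. What the arrays of one number share in the member genes was not tested.

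That spread was large beside the rest of these arrays. The absolute log2 difference between replicates, averaged over both buds, had a median of 0.25 over tested probe sets. It was 1.12 for pdia2.L, more than in 99.6% of tested probe sets, and 0.75 for cpa1.L, more than in 97.1%. For cpb1.S it was 2.26, 1.39 and 0.35 in the brightest, middle and dimmest probe set, which was more than in 99.98%, 99.8% and 71.0% of probe sets. The difference between buds was below this replicate spread for pdia2.L (0.14) and the brightest cpb1.S probe set (0.87), close to it for the middle one (1.33), and above it for cpa1.L (0.89) and the dimmest cpb1.S probe set (0.47). Replicate 1 was at least 1.5-fold above replicate 2 in both buds, on the log2(intensity + 6) scale, for 35 of 9294 probe sets (0.377%). These included 3 of the 5 tested member probe sets, pdia2.L and the brighter pair of cpb1.S, which made up 8.57% of the 35. The fold of 1.5 was chosen after the values were seen.

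**Figure D2:**
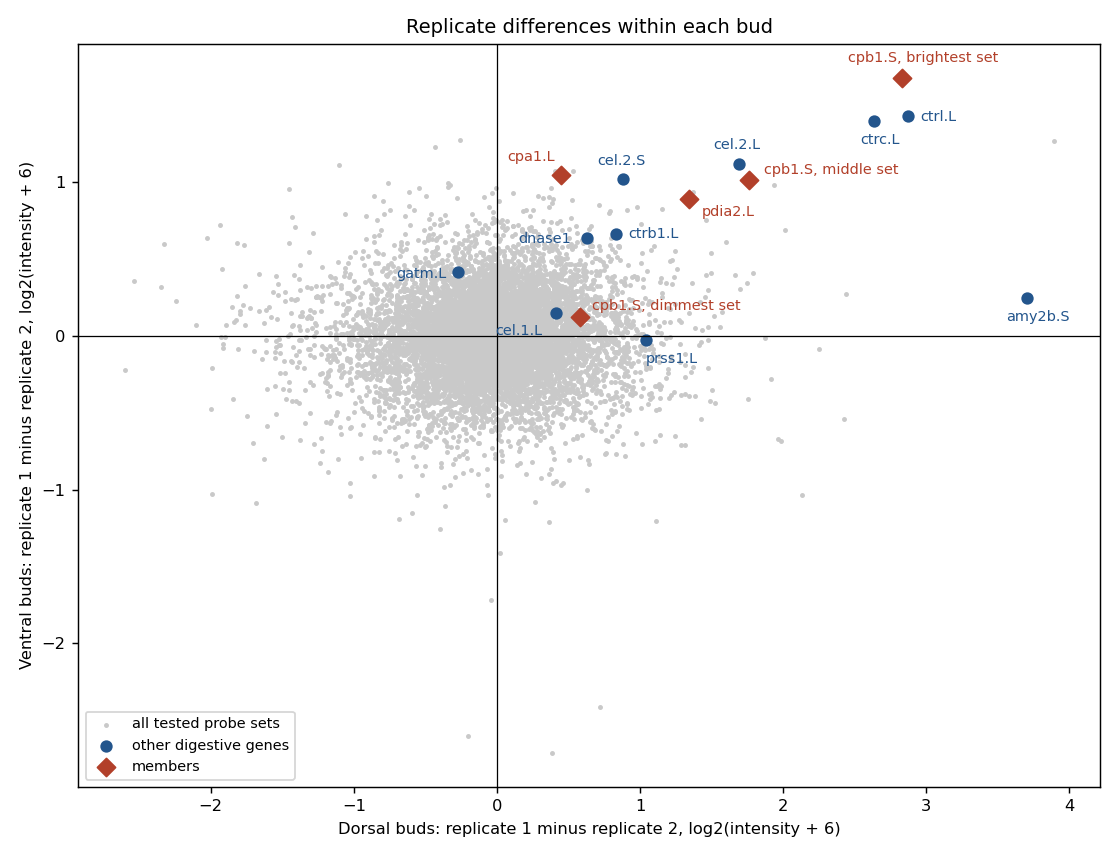
Difference between replicate 1 and replicate 2 on the log2(intensity + 6) scale, in dorsal buds (horizontal axis) and ventral buds (vertical axis). Grey points are 9294 tested probe sets, blue points 10 other genes of the digestive lists and red diamonds 5 member probe sets. All members lie in the upper right quadrant, with the brightest cpb1.S probe set at 2.83 and 1.68 next to ctrl.L and ctrc.L.

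The other digestive genes were compared with the members by lists of serine protease zymogens and of lipases, amylase and further acinar secretory genes. Replicate 1 was higher in both buds for 8 of the 10 that were tested, the exceptions being trypsinogen prss1.L, with 21.4 and 21.8 in the ventral arrays, and the creatine synthesis gene gatm.L, with 1102 and 1335 in the dorsal arrays. Chymotrypsin-like ctrl.L was at 3446 and 465 in dorsal 1 and 2 and at 1840.3 and 677 in ventral 1 and 2. Chymotrypsinogen ctrc.L was at 2162 and 342 in the dorsal arrays against 1684 and 634 in the ventral arrays. These proteases, which cut chains before carboxypeptidases trim them, followed the same order of arrays in each bud as cpb1.S. Of the carboxyl ester lipases, which split cholesterol esters and other lipid esters, cel.2.S was at 1692 and 917 in the dorsal arrays against 1079 and 528 in the ventral arrays. Amylase amy2b.S stood out by dorsal 1 alone, at 200.2 against 9.79 in dorsal 2 and 17.0 and 13.4 in the ventral arrays.

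By bud, the digestive lists were unlike each other in their medians. Of 8 serine protease genes, 4 were tested, 0 passed in limma, 0 reached an unadjusted p of 0.05, and their median log2 difference was -0.12. Of 8 lipase, amylase and acinar genes, 6 were tested, 0 passed and 2 had an unadjusted p under 0.05 in the dorsal direction. These 2 were dnase1 and gatm.L, and no tested lipase or amylase gene reached it. Of all tested probe sets, 3.41% did so, and 0.258% passed the adjusted threshold in either direction. The median of the 6 was 0.77, against 0.03 over all tested probe sets, and all 6 were above 0. Only 3 of the 6 had groups that did not overlap, with dorsal higher, an order seen in 21.9% of all tested probe sets. In amy2b.S dorsal 2 was the lowest array, so its sign rests on dorsal 1 alone. Among the 6 was the creatine synthesis gene gatm.L (0.82), which is not a digestive enzyme. The largest of the 6 was dnase1, a secreted nuclease, at 1.63 (adjusted p = 0.103 in limma). Its intensities were 617 and 397 in the dorsal arrays against 196 and 124 in the ventral arrays. Like cpa1.L, dnase1 had groups that did not overlap and was higher in replicate 1 of each bud. The 4 elastase genes of the protease list (cela1.1.L, cela1.2.L, cela1.4.L and cela3b.L) and the lipases pnlip.L and pnliprp2.L were too dim to be tested, as was cpa1.S. Unlike the tested genes of their list, these lipases were not above 0, with log2 differences of -0.02 (pnlip.L) and -0.97 (pnliprp2.L).

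**Figure D3:**
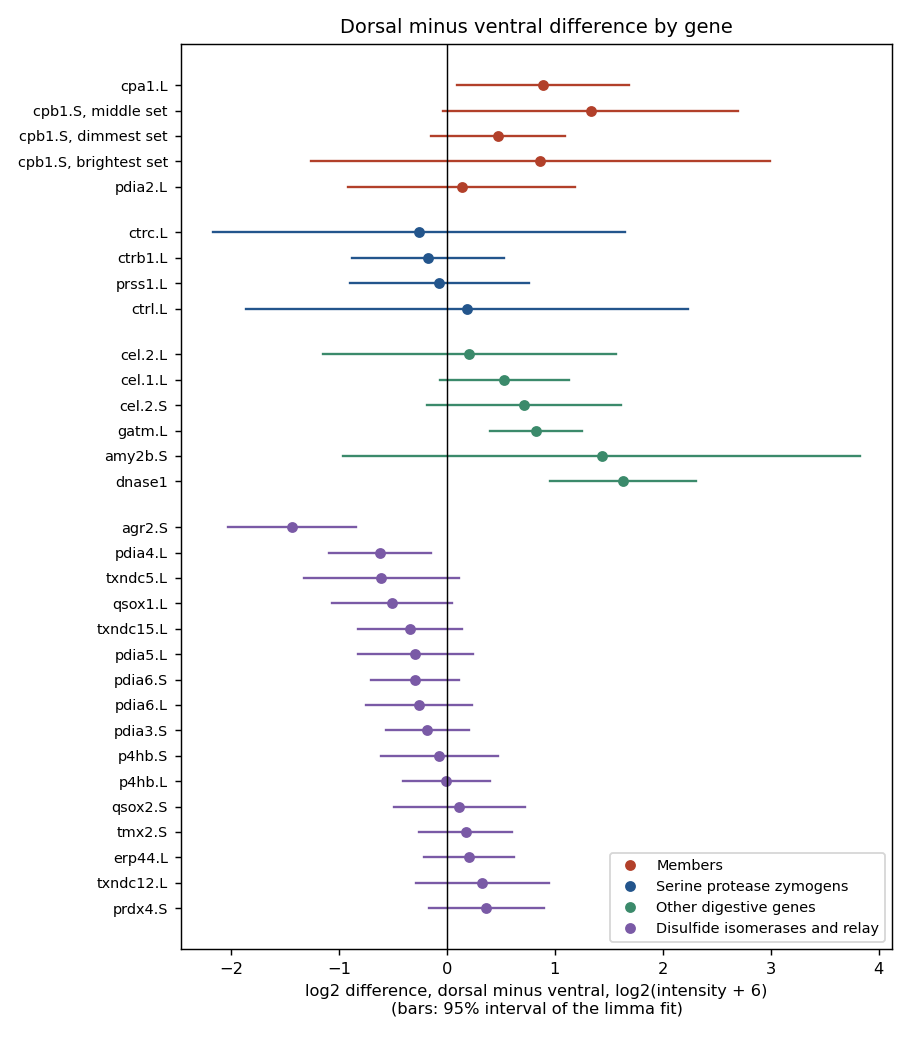
Log2 difference, dorsal minus ventral, on the log2(intensity + 6) scale (horizontal axis) for the 5 tested member probe sets and the tested genes of the serine protease, lipase and acinar, and disulfide lists. Points are estimates and bars the 95% intervals of the limma fit. The intervals of ctrl.L, ctrc.L, amy2b.S and the brightest cpb1.S probe set are the widest, and that of pdia2.L runs from -0.91 to 1.19.

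The tested zinc carboxypeptidases outside the exocrine pancreas, cpe.L and cpq.L, were not higher in replicate 1 of both buds. Most tested probe sets also lacked that order, which 24.9% of them had, so this does not set these genes apart. Of 8 genes of the carboxypeptidase list, drawn by symbol, 4 were tested, cpa1.L and cpb1.S among them. In limma 1 passed, while cpa1.S, cpa6.L, cpn1.S and agbl5.L were too dim. This was cpe.L, whose enzyme works on prohormones in endocrine granules, with 66.8 and 73.5 in the dorsal arrays against 17.5 and 15.6 in the ventral arrays. Its log2 difference was 1.76 (adjusted p = 0.0293 in limma), and 0.0753% of all tested probe sets passed in the dorsal direction. In contrast to the digestive carboxypeptidases, cpe.L had replicate differences of -0.13 in dorsal and 0.12 in ventral buds, small beside its difference between buds. The log2 difference of cpq.L was 0.11 (intensities of 14.2 and 22.5 in the dorsal arrays against 18.4 and 14.1 in the ventral arrays). The median of the 4 tested genes, cpa1.L and cpb1.S included, was 0.88.

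Of the tested genes for disulfide bond formation, pdia2.L had the widest spread between replicates. Of 19 genes of the isomerase and disulfide relay list, 17 were tested and 0 passed in limma, while 2 reached an unadjusted p of 0.05, agr2.S and pdia4.L, both ventral (5.21% of all tested probe sets did so). The adjusted threshold was passed by 0.258% of all tested probe sets. The list median was -0.18. Leaving out pdia2.L, the averaged absolute replicate difference had a median of 0.31 and reached at most 0.50 (txndc5.L), against 1.12 for pdia2.L. The general isomerase p4hb.L, which is made in most secretory cells, was at 1883 and 1550.4 in the dorsal arrays against 1979.5 and 1482 in the ventral arrays. It was higher in replicate 1 of each bud as well, by ratios of 1.21 and 1.34. The glycoprotein isomerase pdia3.S had ratios of 1.15 and 1.12. Of the 16 other tested genes of the list, 7 had replicate 1 higher in both buds and 11 had a log2 difference below 0. The farthest was agr2.S, an isomerase of mucus-secreting cells, at 9.22 and 5.74 in the dorsal arrays against 27.1 and 33.4 in the ventral arrays (log2 difference -1.43). Both its dorsal values lay under the minimum for testing, equivalent to 15.1. It was thus tested only through the ventral arrays, and its place in the list and its unadjusted p carry that condition.

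No gene of the endoplasmic reticulum list or of the regulators passed, where 0.258% of all tested probe sets did. Of 49 chaperone and translocation genes, 46 were tested, 0 passed in limma and 2 reached an unadjusted p of 0.05, both ventral, the homeologues of the calcium-binding chaperone calreticulin, calr.L (log2 difference -0.63, adjusted p = 0.327) and calr.S (-0.39, adjusted p = 0.551). Both were lower in dorsal 1 than in dorsal 2, at 255 and 335 for calr.L. The median log2 difference of the list was 0.04, and 22 had replicate 1 higher in both buds (47.8%, against 24.9% of all tested probe sets). The signal peptidase subunit gene spcs2.S had the largest averaged replicate difference of the list at 0.90, with 334 and 137 in the dorsal arrays against 295 and 199 in the ventral arrays. Of 15 acinar and pancreas regulators, 14 were tested, 0 passed in limma and 5 reached an unadjusted p of 0.05, 4 dorsal and 1 ventral. The dorsal ones were neurod1.L (1.63) and insm1.L (1.42), which are factors of endocrine cells and also stand in the endocrine list, mnx1.S (0.94), in mouse a factor of the early dorsal bud and of beta cells, and nr5a2.L (0.92), known from acinar and other endodermal cells. The ventral one was hnf4a.S (-1.19), a factor of liver and gut endoderm. The list median was 0.18. Over all tested probe sets, 3.41% reached an unadjusted p of 0.05 in limma in the dorsal and 5.21% in the ventral direction. The secretory pathway regulator xbp1.L was at 371 and 206 in the dorsal arrays against 297 and 237 in the ventral arrays, with replicate 1 higher in each. The homeologue nr5a2.S showed the same order at 280.02 and 116 in the dorsal arrays against 337 and 237 in the ventral arrays, while nr5a2.L was at 94.8 and 155 in dorsal buds, with replicate 1 lower there.

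Profiles most like those of the members were sought among 6224 probe sets with a gene symbol that passed the filter. The measure was the root mean square difference of the centred log2 values over the 4 arrays, and with 4 arrays it describes likeness only. The nearest genes to cpb1.S were ctrl.L (0.35), cel.2.L (0.56) and ctrc.L (0.57), where the median over candidates was 1.26. The nearest to pdia2.L were serp1.S (0.14), atf5.2.S (0.15) and cel.2.L (0.15), with a median of 0.61. The serp1 protein protects membrane proteins in the stressed endoplasmic reticulum and atf5 is a transcription factor. The nearest to cpa1.L were ppan.L (0.15), cyp4v2.1.L (0.17) and aldh6a1.S (0.17), with a median of 0.61. No digestive gene was among these 3, but a cut at 3 genes does not show that none lay close. The lipase cel.2.S, for example, had a log2 difference of 0.72 and replicate differences of 0.88 in dorsal and 1.02 in ventral buds. For cpa1.L these values were 0.89, 0.45 and 1.05. For the dim cpa1.S, the nearest were ctrb1.L (0.04), rbpj.S (0.06) and eif2ak2.L (0.06). The pseudocount flattens the centred profile of cpa1.S, so that its distances are small by construction. This rbpj.S probe set was a dim one, at 32.6 and 15.5 in the dorsal and 34.2 and 20.8 in the ventral arrays. The brightest rbpj.S probe set was at 422 and 254 in the dorsal and 379 and 376 in the ventral arrays, with nearly equal ventral replicates. Between members, cpa1.L lay 0.49 and the brightest cpb1.S probe set 0.70 from pdia2.L.

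**Figure D4:**
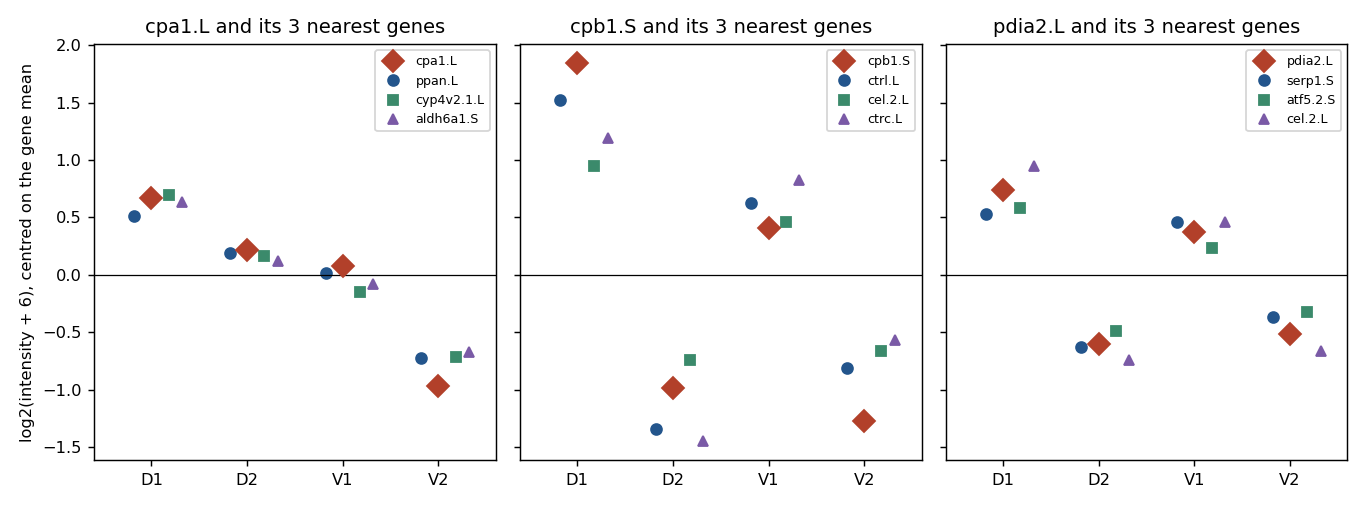
Log2(intensity + 6) centred on each gene's mean (vertical axis) in dorsal arrays 1 and 2 and ventral arrays 1 and 2, for cpa1.L, the brightest cpb1.S probe set and pdia2.L (red diamonds) and the 3 genes nearest to each. Both cpb1.S and pdia2.L are above 0 in D1 and V1 and below 0 in D2 and V2, whereas cpa1.L falls below 0 in V2 alone.

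Markers of other cell types also differed between the same arrays. The summed intensity of the 24 liver genes was 3841 in dorsal 1, 7039 in dorsal 2, 9032 in ventral 1 and 8716 in ventral 2, and 0 of 23 tested had replicate 1 higher in both buds. Of these 23, 4 passed in limma, all ventral, and their median log2 difference was -0.80. The sum of 14 endocrine genes was 3696 and 4409.7 in the dorsal arrays against 186 and 153 in the ventral arrays, with 4 of 7 tested genes passing, all dorsal, and a median of 1.76. The filter acts on the mean of all arrays, so some genes were tested only through the bud where they are high. Examples are pcsk2.L, at 5.26 and 2.83 in the ventral arrays, and the liver gene f9.S, at 8.12 and 7.19 in the dorsal arrays. The counts and medians of tested genes carry that condition. Over all tested probe sets, 0.0753% passed in limma in the dorsal and 0.183% in the ventral direction. In that test 3.41% had an unadjusted p under 0.05 with dorsal higher and 5.21% with ventral higher. The 7 untested endocrine genes ranged in log2 difference from 0.07 (gcg.L) to 2.36 (scg3.L). The sum of 23 skeletal muscle genes was 874 and 893 in the dorsal arrays against 1246 and 1610.6 in the ventral arrays, with 0 of 13 tested passing, 8 at an unadjusted p under 0.05, all ventral, and a median of -1.56. These sums hold the nonmuscle myosin myh9.L, at 288 in dorsal 1 and 469 in dorsal 2. By gene, 10 of the 13 tested muscle genes were higher in dorsal 1 than in dorsal 2, as the members were, with a median replicate difference of 0.95. The fast muscle light chain mylpf.L was at 52.7 in dorsal 1 and 16.7 in dorsal 2, and the myosin heavy chain myh8.L at 35.8 and 10.4. In ventral buds 1 of the 13 was higher in replicate 1, with a median of -0.35, unlike the members. The sum of 22 blood genes was 9472 and 6181 in the dorsal arrays against 11246 and 15605 in the ventral arrays, with 0 of 14 tested passing, 9 at an unadjusted p under 0.05, all ventral, and a median of -0.74. Of these 14, 9 were higher in replicate 1 in dorsal and 2 in ventral buds. No gene of these lists was at 0 on any array. The 8 serine protease genes summed to 10732 and 3661 in the dorsal arrays against 8924 and 4737 in the ventral arrays. Dorsal 1 held the highest sum of proteases and the lowest sum of liver genes. In the ventral pair, replicate 1 was higher in both sums (8924 against 4737 for proteases, 9032 against 8716 for liver genes). The part of other cell types in the members' values was not tested.

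**Figure D5:**
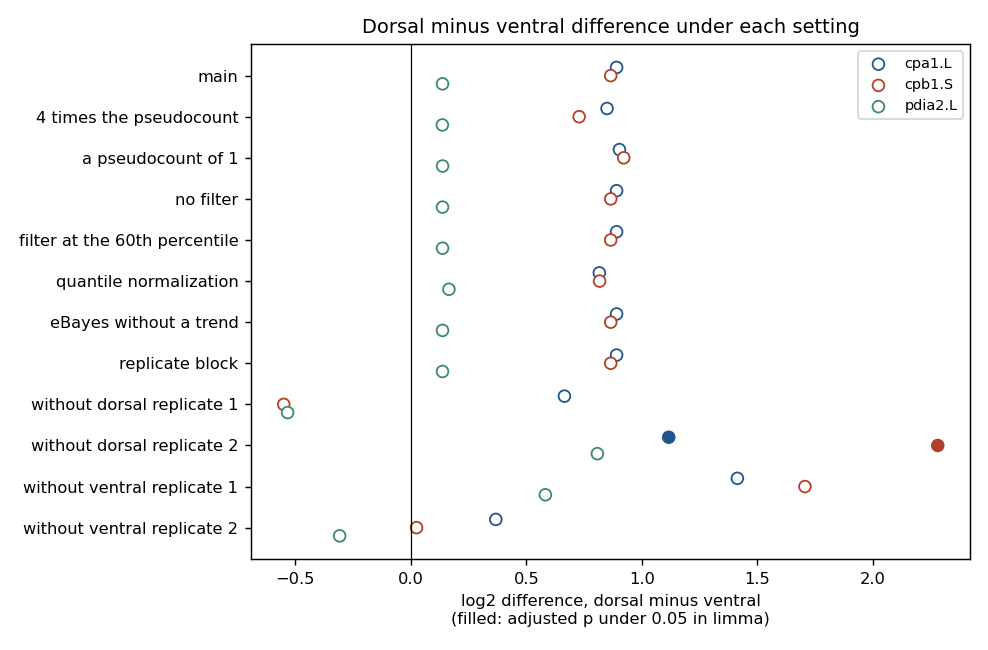
Log2 difference, dorsal minus ventral (horizontal axis), of cpa1.L, the brightest cpb1.S probe set and pdia2.L under the main setting and each alternative (vertical axis). Filled points have an adjusted p under 0.05. Pseudocount, filter and normalization left each estimate close to its main value, while leaving out 1 array moved cpb1.S from -0.55 to 2.28 and pdia2.L from -0.53 to 0.81.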

How the data were processed

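Total RNA from 4 pools of buds was read on 1-colour Affymetrix arrays. The deposited values are linear probe-set intensities made by the authors with MAS5, per the submitters' processing notes. Its version, scaling target and detection calls are not given in the sources used here. MAS5 values are noisy where low.

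Of 15611 probe sets, 120 controls were left out. Symbols were updated by gene identifier through RefSeq's table for *Xenopus laevis* v10.1 (9227 of 9304 matched). The 2% trimmed means (61.1 to 63.3) lay within 10% of each other, so no further scaling was applied. Before log2, a pseudocount of 6 was added (20th percentile of the intensities), which understates the change of dim genes. The 9294 probe sets with a mean log2 above the 40th percentile were tested, dorsal minus ventral, with limma 3.58.1 in R 4.3.3 (eBayes with a trend, no covariate) and Benjamini-Hochberg adjustment at 0.05. The procedure was tested on simulated data with the same spread, the median within-group SD, for every probe set. That run does not describe its error for members of wider spread. The precision is limited by the number of arrays.

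The members and the 10 gene lists were chosen with earlier results of these data known. Lists were symbol patterns, with the probe set of highest mean log2 per gene. The muscle pattern also took nonmuscle myosins, the translocation pattern the kinases srpk1.S and srpk3.S, and the blood pattern relatives of epb41. The rule for named genes was all members, up to 4 per list by absolute difference, and the 3 nearest profiles per member. Not every gene it gave is discussed, and others, such as spcs2.S, xbp1.L and nr5a2.S, were chosen after their values were seen. Alternatives were other pseudocounts, filters, quantile normalization, no trend, a replicate block and leaving out each array.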

Additional observations from a re-analysis of the deposited data

How the results depend on the processing

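No member was called with 4 times the pseudocount, a pseudocount of 1, no filter, quantile normalization or no trend, nor with the filter at the 60th percentile, which removed the dimmest cpb1.S probe set. The replicate numbers do not pair the pools by any label, and the correlation of same-numbered deviations over tested probe sets was 0.05. With the replicate number as a block, 67 probe sets passed in place of 24, and no member did (adjusted p = 0.106 for cpa1.L, 0.846 for pdia2.L, and 0.385, 0.0698 and 0.658 for the brightest, middle and dimmest cpb1.S probe set). The filter at the 60th percentile gave 13. Without 1 array the count of probe sets passing ran from 4 to 902, the difference of cpa1.L from 0.37 to 1.41, of cpa1.S from -0.52 to 0.34, of the brightest cpb1.S probe set from -0.55 to 2.28 and of pdia2.L from -0.53 to 0.81. In these fits a lone array is taken to vary like the other group; the cause of the changes was not tested. The replicate spread of the brightest cpb1.S probe set (2.26, against 0.35 in the dimmest) limits what it can show.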

Other observations

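The 35 probe sets with replicate 1 at least 1.5-fold above replicate 2 in both buds named 21 genes, chosen here after their values were seen. Beside 3 member probe sets and 6 of the digestive lists, none came from the disulfide or endoplasmic reticulum lists (0 of 35). Those lists do not hold fkbp11, hm13 or tram1, so this 0 depends on how they were drawn. Outside the members and all lists, the set also named sbk1l.L, erf.S, bcat1.L, pdcd4.S, nrsn1.L, p2rx4.L and serp1.S. The genes below were picked by eye, and whether they share a theme was not tested. The endoplasmic reticulum prolyl isomerase gene fkbp11.L was at 894 and 229 in dorsal 1 and 2 and at 810.4 and 406 in ventral 1 and 2. The signal peptide peptidase gene hm13.L was at 926 and 562 in the dorsal arrays against 689 and 457 in the ventral arrays. For tram1.S, which acts at the translocation channel, intensities were 88.7 and 54.9 in the dorsal arrays against 96.9 and 60.1 in the ventral arrays. The proprotein convertase furin.L was at 61.4 and 38.3 in the dorsal arrays against 123 and 79.1 in the ventral arrays. The highest dorsal difference in the set was that of MGC64344, at 809 and 48.9 in the dorsal arrays against 412 and 168 in the ventral arrays. The pterin dehydratase gene pcbd1.L, with 3 probe sets in the set, was brighter in ventral buds on each of them, for example 157 and 70.3 in dorsal against 286 and 188 in ventral buds.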
